A study of Homo sapiens with 4 samples.

Results

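The 34 genes described here are the regulators and targets of NRF2 (gene NFE2L2) together with the enzymes of glutathione metabolism, on 4 microarrays of HepG2 and A549 cells with and without the EZH2 inhibitor GSK343. A gene was counted as measured where a probe named that gene alone in the platform's annotation, which held for 33 of the 34 genes. These genes had 42 probes, of 31741 probes in all and of 24740 that named 1 gene. The glutathione transferase GSTA1 was represented only by probes that also named other GSTA genes, and its values are given apart. The list was drawn up by function.

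A549 is a human lung cancer line and HepG2 a human liver cancer line. Each was measured after 6 h with 10 μM GSK343, an inhibitor that competes with S-adenosylmethionine in the histone methyltransferase EZH2, and as a control, in medium with serum. The labels do not say what the control cells received or whether the cultures were independent. Each of the 4 conditions was 1 array (Human OneArray Plus, Cy5-labelled amplified RNA from TRIzol extracts), so that no difference between 2 arrays has a replicate. The median intensity per array lay between 449.8 and 498.8, in arbitrary units. The labels of the lines were checked with marker genes: all 9 measured liver markers were lower in A549, with a median difference of -9.01 log2 units between the control arrays, and 8 of 9 markers expected in A549 were higher, while KRT19 was lower at -1.15 log2 units. These are bulk RNA measurements, in which fewer cells that express a gene and less RNA per cell cannot be told apart.

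NRF2 is a transcription factor that KEAP1 holds in the cytoplasm and delivers to the proteasome. Oxidants and electrophiles modify KEAP1, NRF2 then enters the nucleus, pairs with a small MAF protein such as MAFG and binds antioxidant response elements near its targets. The targets make glutathione, recycle thioredoxin, supply NADPH and conjugate or reduce reactive compounds. A549 carries a loss-of-function mutation of KEAP1 and is known for constitutive NRF2 activity, whereas HepG2 is known as a line in which NRF2 can be induced.

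The core of the antioxidant response element was looked up as TGACNNNGC on both strands in the promoters of the genes, taken from RefSeq (GRCh38.p14) as 300 bases with 250 before and 50 after the start. Of the 34 genes, 29 were listed, with 39 windows, and 11 of the 29 held at least 1 match (37.9%). Among all 27305 listed genes, 4384 held a match (16.1%). A match is a description of letters and not evidence of binding, and its absence says only that these letters are not in this window. The windows of 5 genes are shown because these are the genes that held a match and also differed between A549 and HepG2 in the test below. GSTP1, CBR1, TXNRD1 and PGD were higher in A549, and GSTA4 was lower. Capitals mark the match in each sequence, which is written 5′ to 3′ on the strand of the gene.
GSTP1 promoter, chr11:67583562-67583861, + strand: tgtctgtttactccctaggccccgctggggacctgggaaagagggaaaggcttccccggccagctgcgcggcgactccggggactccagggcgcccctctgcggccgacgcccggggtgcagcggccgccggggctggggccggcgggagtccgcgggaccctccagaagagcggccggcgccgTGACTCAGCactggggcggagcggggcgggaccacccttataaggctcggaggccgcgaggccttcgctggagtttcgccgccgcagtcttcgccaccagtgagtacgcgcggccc
CBR1 promoter, chr21:36069774-36070073, + strand: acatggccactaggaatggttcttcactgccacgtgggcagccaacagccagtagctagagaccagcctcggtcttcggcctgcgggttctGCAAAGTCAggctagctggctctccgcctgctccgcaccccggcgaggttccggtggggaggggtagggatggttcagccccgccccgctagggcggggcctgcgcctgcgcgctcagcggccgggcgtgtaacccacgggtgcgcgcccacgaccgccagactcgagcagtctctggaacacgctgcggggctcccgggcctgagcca
TXNRD1 promoter, chr12:104215529-104215828, + strand: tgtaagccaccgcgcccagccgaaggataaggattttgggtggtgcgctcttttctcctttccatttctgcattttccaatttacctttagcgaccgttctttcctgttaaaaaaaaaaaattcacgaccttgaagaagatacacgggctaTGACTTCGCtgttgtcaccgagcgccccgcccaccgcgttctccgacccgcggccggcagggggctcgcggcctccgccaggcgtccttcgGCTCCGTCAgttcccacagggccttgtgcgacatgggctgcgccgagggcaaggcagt
PGD promoter, chr1:10398814-10399113, + strand: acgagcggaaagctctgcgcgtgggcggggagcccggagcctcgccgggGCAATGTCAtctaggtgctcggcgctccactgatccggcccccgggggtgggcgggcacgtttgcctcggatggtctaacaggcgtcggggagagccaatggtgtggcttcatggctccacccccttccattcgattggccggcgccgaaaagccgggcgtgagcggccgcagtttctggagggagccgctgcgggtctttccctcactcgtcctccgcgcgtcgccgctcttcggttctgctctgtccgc
GSTA4 promoter, chr6:52995235-52995534, - strand: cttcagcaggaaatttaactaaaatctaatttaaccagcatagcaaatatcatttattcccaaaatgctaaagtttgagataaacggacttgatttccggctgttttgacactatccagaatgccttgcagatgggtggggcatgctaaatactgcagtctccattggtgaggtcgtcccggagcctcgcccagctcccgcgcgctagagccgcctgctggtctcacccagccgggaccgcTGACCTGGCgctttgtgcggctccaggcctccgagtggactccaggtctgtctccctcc
The match of GSTP1 began 66 bases before the start and was the only one among these genes that also contained the AP-1 motif TGANTCA. In CBR1 it lay 159 bases and in PGD 201 bases before the start, both on the opposite strand. TXNRD1 held 2 matches in the window shown, at 99 and 8 bases, and 1 more in the window of another start. In GSTA4 the match lay 9 bases before the start. By the outcome of the test, 4 of the 8 listed genes that were higher in A549 held a match, as did 1 of the 5 listed genes that were lower and 6 of the 15 without a call. No match was found in the windows of AKR1C1, AKR1C2, AKR1C3, TXN, TKT or NQO1.

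Most of the genes gave a bright signal. Of the 42 probes, 36 were at or above the array's median on all 4 arrays and 28 at or above the 75th percentile. Only 3 probes lay below the 25th percentile on all 4 arrays, namely the probe of NQO1 and the dimmer probes of PRDX1 and GSTM3. NQO1 encodes a quinone reductase and is a standard reporter of NRF2 activity. Its probe read 78.2 with GSK343 and 71.1 in the control in A549, and 64.1 with GSK343 and 59.6 in the control in HepG2, at the 17.0 to 20.6 percentiles of the arrays. It had no call between the lines (0.27 log2 units, SE 0.21, limma adjusted p = 0.38), and the table holds neither the probe's position in the transcript nor a background value. PRDX1, a peroxiredoxin that reduces peroxides, shows how far 2 probes of a gene can differ in brightness, with 173499 to 246373 over the 4 arrays for one and 29.0 to 57.9 for the other. Levels are therefore compared between arrays for the same probe and not between probes.

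**Figure D1:**
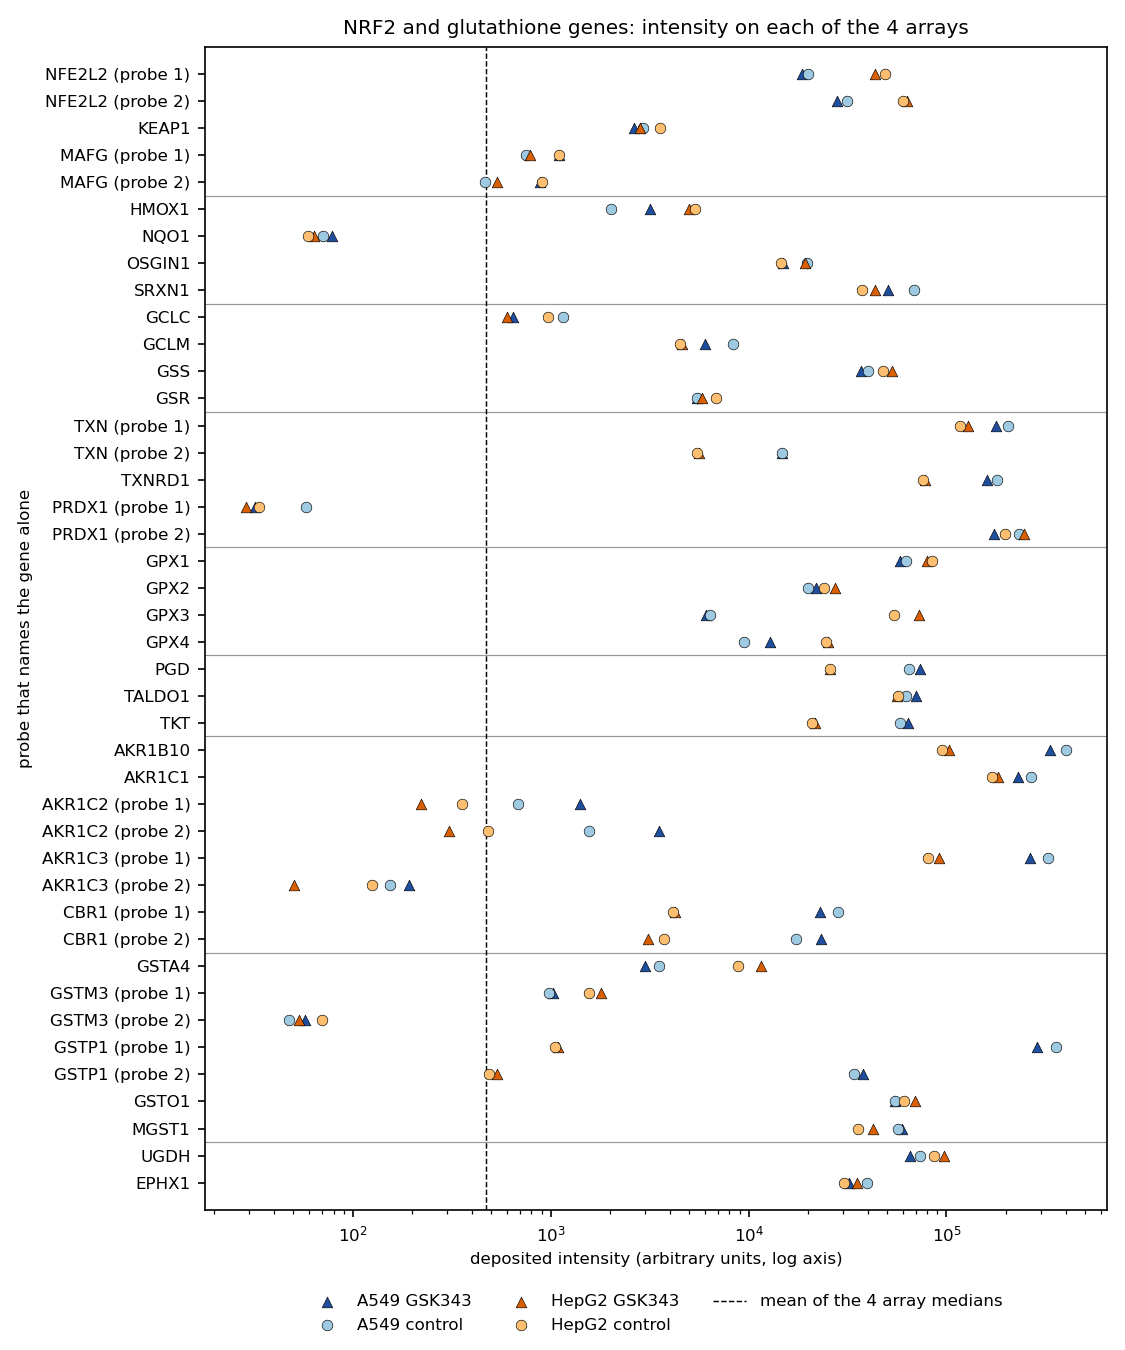
Deposited intensity on a log axis (horizontal) of each of the 42 probes that name a listed gene alone (vertical, grouped by role between grey lines), with triangles for GSK343 arrays, circles for control arrays, blue for A549 and orange for HepG2. Most probes lie to the right of the dashed line, the mean of the array medians. Both GSTP1 probes are separated by line far more than by treatment, and the NQO1 probe lies at 59.6 to 78.2 on all arrays.

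The first comparison asked how the basal level of these genes differs between the lines. On the control arrays, 9 of the 33 genes (27.3%) were at least 1 log2 unit higher in A549, against 13.7% of all genes, and 5 genes (15.2%) were at least 1 log2 unit lower, against 13.0% of all genes. The median difference, A549 minus HepG2, was 0.26 log2 units over the listed genes and -0.07 over all genes. The GSK343 arrays are a second pair of arrays from the same lines, and there 8 genes were higher (14.6% of all genes) and 3 were lower (10.9% of all genes). Past this size in both pairs were 8 genes in the higher direction (24.2%, against 11.2% of all genes) and 3 in the lower direction (9.09%, against 8.92%). A fit by limma over the 4 arrays had terms for line and treatment. Its error for each probe joined the disagreement between these pairs (1 residual degree of freedom) with the variance of probes of like intensity (5.89 prior degrees of freedom). The fit called 13 of the 42 probes higher in A549, where 17.4% of all probes were called, and 7 lower, where 15.2% of all probes were called. By gene, 9 of the 33 had a probe called higher, 6 a probe called lower and 18 no call, where 21.0% of all genes had a probe called higher and 18.2% a probe called lower. These shares of all genes are the background for the counts by role and by list below. Of 7 genes often used as controls for loading, 4 also had a probe called higher in A549 and none a probe called lower. Their differences on the control arrays had a median of 0.86 log2 units and ranged from -0.62 to 1.76, with 3 of the 7 below 0. The highest value is that of RPLP0, which is among the 4 called and has a dim probe, at the 10.4 to 36.2 percentiles of the arrays. What part the differences of these control genes have in those below was not tested.

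The reductases were the role with the most genes higher in A549, at 4 of 5 (6 of 8 probes), against 21.0% of all genes. AKR1B10 and AKR1C1 to AKR1C3 are aldo-keto reductases that reduce reactive aldehydes and ketones, and CBR1 is a carbonyl reductase. AKR1B10 read 332168 with GSK343 and 401639 in the control in A549, against 103163 and 95219 in HepG2, and its difference over the 4 arrays was 1.88 log2 units (SE 0.19, limma adjusted p = 0.000322). Both A549 arrays were above both HepG2 arrays. CBR1 read 22930.1 with GSK343 and 28351 in the control in A549, against 4233 and 4155 in HepG2, with its probe 1. Its probe 2 read 23132 and 17452 in A549, against 3097 and 3743 in HepG2, and the differences of the probes were 2.60 and 2.56 log2 units (SE 0.22 and 0.25, limma adjusted p = 0.000125 and 0.00025). The CBR1 probes thus gave nearly the same difference between the lines.

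AKR1C2 was higher in A549 with both of its probes. Probe 1 read 1405 with GSK343 and 682 in the control in A549, against 221 and 356 in HepG2, and probe 2 read 3522 and 1571 in A549, against 308 and 481 in HepG2. The differences over the 4 arrays were 1.80 and 2.61 log2 units (SE 0.38 and 0.40, limma adjusted p = 0.0107 and 0.00243). The gap between the lines was wider on the GSK343 arrays, at 3.09 log2 units as the mean of both probes, than on the control arrays, at 1.32. AKR1C3 had a bright probe, with 263426 under GSK343 and 324482 in the control in A549, against 91910.3 and 80191 in HepG2 (1.77 log2 units, SE 0.20, limma adjusted p = 0.000596). Its dim probe read 192 and 154 in A549, against 50.7 and 125 in HepG2, and was not called (1.11 log2 units, SE 0.37, adjusted p = 0.0583). AKR1C1 read 231001 with GSK343 and 266703 in the control in A549, against 182071 and 168933 in HepG2. All these values lie in the same direction, yet AKR1C1 did not pass the test (0.50 log2 units, SE 0.19, limma adjusted p = 0.0828). The AKR1C genes are close paralogs, and 2 further probes named several of them. One of these, for AKR1C3 and AKR1C1, was higher in A549 by 1.07 log2 units (SE 0.19, limma adjusted p = 0.00475), and the other, which also named AKR1C4, was not called (0.34 log2 units, SE 0.20, adjusted p = 0.241). How much of each signal belongs to which paralog was not tested.

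Among glutathione transferases, which join glutathione to electrophiles, the lines differed by enzyme. GSTP1, the pi-class transferase, had the largest difference of the listed genes. Its probe 1 read 284959 with GSK343 and 358052 in the control in A549, against 1088 and 1047 in HepG2, which is 262-fold and 342-fold higher in A549. Its probe 2 read 37807 and 34034 in A549, against 534 and 487 in HepG2. The differences of the probes over the 4 arrays were 8.23 and 6.14 log2 units (SE 0.22 and 0.21, limma adjusted p = 1.07e-06 and 2.12e-06). Both probes were thus far apart between the lines on both pairs of arrays, with an intensity at the 62.4 and 61.3 percentiles of the HepG2 arrays for probe 1 and at 52.5 and 50.4 for probe 2, with GSK343 and in the control.

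The alpha class lay in the other direction. GSTA4, which acts on lipid aldehydes such as 4-hydroxynonenal, read 2983 with GSK343 and 3539 in the control in A549, against 11556 and 8846 in HepG2 (-1.64 log2 units, SE 0.24, limma adjusted p = 0.0022). The probe shared by GSTA1, GSTA2 and GSTA3 read 72.4 and 65.5 in A549, against 12263 and 10654 in HepG2 (-7.38 log2 units, SE 0.20, limma adjusted p = 1.08e-06). A probe that also named GSTA5 read 107 and 106 in A549, against 10986 and 9366 in HepG2 (-6.57 log2 units, SE 0.21, limma adjusted p = 1.56e-06). Both shared probes were near or below the 25th percentile of the A549 arrays, and which of the GSTA genes gave the signal in HepG2 is not resolved by them. GSTM3, a mu-class transferase, was lower in A549 with its brighter probe, at 1025 and 981 in A549 against 1805 and 1555 in HepG2 (-0.74 log2 units, SE 0.21, limma adjusted p = 0.0321), and its dim probe, at 57.7 and 47.4 in A549 against 53.8 and 70.1 in HepG2, was not called (-0.23 log2 units, SE 0.25, adjusted p = 0.541). MGST1, a membrane-bound transferase, had a difference of 0.59 log2 units (SE 0.20, limma adjusted p = 0.0633) and GSTO1, the omega-class enzyme, of -0.25 (SE 0.20, adjusted p = 0.382).

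Of the thioredoxin system, 2 of 3 genes were higher in A549, and so were 2 of 3 genes of the pentose phosphate pathway, which supplies NADPH to thioredoxin and glutathione reductases. TXNRD1, the cytosolic thioredoxin reductase, read 160513 with GSK343 and 179399 in the control in A549, against 77791 and 76145 in HepG2 (1.14 log2 units, SE 0.19, limma adjusted p = 0.00347). TXN, thioredoxin itself, read 14671 and 14765 in A549, against 5651 and 5521 in HepG2, with its probe 2 (1.40 log2 units, SE 0.21, limma adjusted p = 0.00235). Its brighter probe 1 read 177970 and 203674 in A549, against 128680 and 117142 in HepG2 (0.63 log2 units, SE 0.19, adjusted p = 0.0423), a call that several other settings did not give. Within each TXN probe and in TXNRD1, the A549 arrays were above the HepG2 arrays without overlap. PRDX1 had no call with either probe, at 0.47 and -0.14 log2 units over the 4 arrays.

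TKT, the transketolase of the non-oxidative branch, read 63592 with GSK343 and 58409 in the control in A549, against 21669 and 20914.0 in HepG2 (1.52 log2 units, SE 0.20, limma adjusted p = 0.0012). PGD, the second NADPH-producing dehydrogenase of the pathway, read 73194 and 64824 in A549, against 25658 and 25726.5 in HepG2 (1.42 log2 units, SE 0.20, limma adjusted p = 0.00167). For both enzymes the A549 arrays were between 2.52-fold and 2.93-fold above the HepG2 arrays of the same treatment. TALDO1, the transaldolase, read 69925 and 62111 in A549, against 56448 and 57025 in HepG2, and was not called (0.22 log2 units, SE 0.20, adjusted p = 0.457).

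None of the 4 glutathione peroxidases was higher in A549. GPX3, the secreted plasma peroxidase, read 6099 with GSK343 and 6383 in the control in A549, against 72651 and 54595 in HepG2, which is 11.9-fold and 8.55-fold lower in A549 (-3.34 log2 units, SE 0.23, limma adjusted p = 3.93e-05). GPX4, which reduces lipid hydroperoxides in membranes and restrains ferroptosis, read 12870.4 and 9511 in A549, against 25276 and 24749.8 in HepG2 (-1.18 log2 units, SE 0.22, limma adjusted p = 0.0064). In both genes the A549 arrays were below the HepG2 arrays. GPX1, the main cytosolic peroxidase, and GPX2, the gastrointestinal one, had differences of -0.45 and -0.29 log2 units, which did not pass (SE 0.19 and 0.20, limma adjusted p = 0.123 and 0.335).

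None of the 3 regulators and 4 classic targets had a probe called higher in A549. On the control arrays, 3 of the 4 classic targets lay above 0 and 1 below 0. NFE2L2, which encodes NRF2, was lower in A549 with both probes. Probe 1 read 18686 with GSK343 and 19919 in the control in A549, against 43717 and 48862 in HepG2, and probe 2 read 27854 and 31389 in A549, against 62878 and 60182 in HepG2. The differences were -1.26 and -1.06 log2 units (SE 0.20 and 0.20, limma adjusted p = 0.00309 and 0.00692). KEAP1 read 2645 and 2918 in A549, against 2829 and 3564 in HepG2, and was not called (-0.19 log2 units, SE 0.22, limma adjusted p = 0.55). The array reads RNA levels only, so these values carry no information on the KEAP1 mutation or on the amount of NRF2 protein.

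HMOX1, heme oxygenase 1, which degrades heme, read 3186 with GSK343 and 2019.7 in the control in A549, against 5007 and 5379 in HepG2 (-1.03 log2 units, SE 0.26, limma adjusted p = 0.0209). The A549 arrays were below the HepG2 arrays, with the wider gap on the control arrays (-1.41 log2 units) than on the GSK343 arrays (-0.65). SRXN1, sulfiredoxin, which repairs oxidized peroxiredoxins, read 50569 and 68227 in A549, against 43359 and 37591 in HepG2, and was not called (0.54 log2 units, SE 0.23, adjusted p = 0.122). OSGIN1, an oxidative stress-induced growth inhibitor, had a difference of 0.03 log2 units (SE 0.26, limma adjusted p = 0.946).

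Glutathione synthesis and recycling had no call at any of 4 genes. GCLM, the modifier subunit of the ligase that starts the synthesis, read 6026 with GSK343 and 8374 in the control in A549, against 4585 and 4492 in HepG2 (0.65 log2 units, SE 0.23, limma adjusted p = 0.0768). GCLC, the catalytic subunit, had a difference of 0.18 log2 units, GSS, the synthetase of the last step, of -0.39, and GSR, the reductase that regenerates glutathione, of -0.20, with limma adjusted p between 0.201 and 0.554. UGDH, which makes UDP-glucuronic acid for conjugation, and EPHX1, the microsomal epoxide hydrolase, had differences of -0.40 and 0.13 log2 units and were not called (adjusted p = 0.173 and 0.702). With 1 residual degree of freedom among arrays, a missed threshold does not show that the lines have equal levels.

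**Figure D2:**
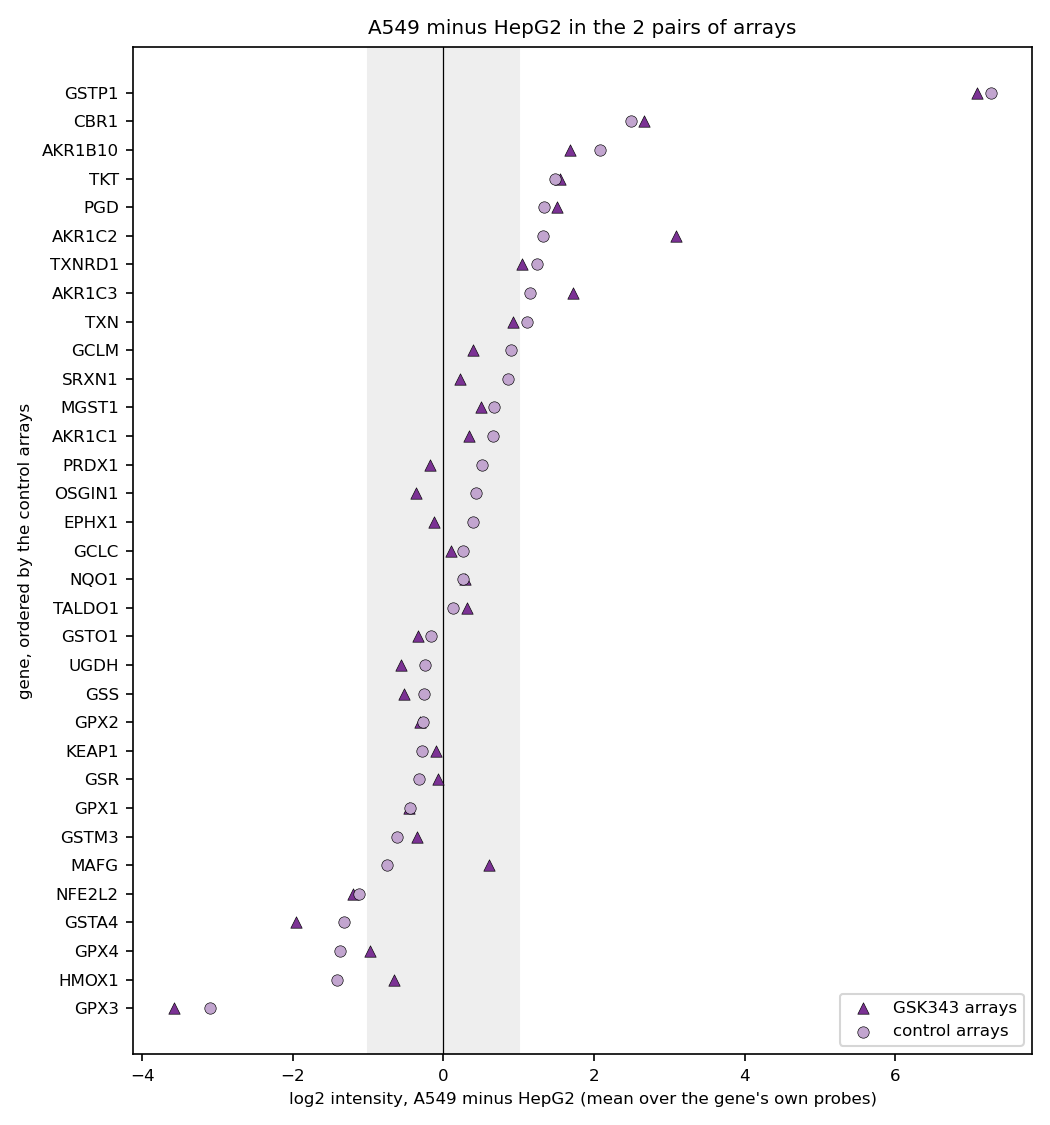
Difference in log2 intensity, A549 minus HepG2 (horizontal), for the 33 genes with a probe of their own (vertical, ordered by the control arrays), with triangles for the pair of GSK343 arrays and circles for the pair of control arrays, each the mean over the gene's probes. The grey band spans 1 log2 unit on either side of 0. GSTP1 stands apart at 7.09 and 7.27, and AKR1C2 and MAFG show the widest gaps between the pairs.

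The second comparison asked what 6 h of GSK343 did to these genes in each line. In HepG2, none of the 33 genes differed by 1 log2 unit or more between the GSK343 and the control array, where 0.458% of all genes were that much higher and 1.87% that much lower. The differences lay between -0.68 and 0.41 log2 units, with 20 genes above 0 (60.6%, against 46.7% of all genes and 54.9% of genes with a mean intensity at or above the 75th percentile) and a median of 0.05, which was -0.01 after quantile normalization, against -0.02 over all genes. The yardstick used here was the spread of the GSK343 difference between probes of the same gene (SD of the difference between 2 probes over the square root of 2). It was 0.39 log2 units in HepG2 and 0.42 in A549. Both probes of a gene are read on the same arrays, so this spread leaves out differences between cultures, RNA preparations and hybridizations. It applies to 1 probe, whereas genes with 2 probes enter as a mean. In HepG2, 27 of the 33 genes (81.8%) lay within this spread, and so did 83.7% of all genes. Over probes at or above the array median alone, a setting added after these values were seen, this spread was smaller, at 0.28 log2 units in HepG2 and 0.38 in A549. Within it lay 25 of the 33 genes in HepG2 (75.8%), against 72.5% of all genes and 79.2% of genes with a mean intensity at or above the 75th percentile.

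The 6 genes of HepG2 outside the spread were of different roles. GCLC read 604 with GSK343 and 967 in the control, a difference of -0.68 log2 units. AKR1C2 differed by -0.66 log2 units as the mean of 2 probes (-0.68 and -0.64), and MAFG, the small MAF partner of NRF2, by -0.62 (-0.49 and -0.76). Between the probes of each gene these differences were 0.04 and 0.27 log2 units apart. AKR1C3 had a mean of -0.56 log2 units, but its probes disagree, at 0.20 for the bright probe and -1.31 for the dim probe, so the mean rests on the dim one. GPX3 and OSGIN1 had the highest values, 0.41 and 0.40 log2 units, each from 1 probe. OSGIN1 read 19264 with GSK343 and 14566 in the control. KEAP1, at -0.33 log2 units, and GSTA4, at 0.39, lay outside the smaller spread of the brighter probes only.

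In A549, 1 of the 33 genes was at least 1 log2 unit higher with GSK343, where 0.932% of all genes were, and none was at least 1 log2 unit lower, where 0.534% of all genes were. That gene was AKR1C2, at 1.10 log2 units as the mean of 1.04 and 1.16 for its probes, or 2.06-fold and 2.24-fold. After median centring it was 0.99 log2 units, so that no listed gene reached 1 log2 unit, and none reached 1.5 without centring. The differences of the listed genes lay between -0.84 and 1.10 log2 units, with 15 genes above 0 (45.5%, against 54.7% of all genes and 42.4% of genes with a mean intensity at or above the 75th percentile) and a median of -0.09, which was -0.21 after median centring and 0.01 after quantile normalization. The median over all genes was 0.04, and over the 26 listed genes with a mean intensity at or above the 75th percentile it was -0.09, against -0.05 over all genes that bright. Within the spread between probes lay 25 genes (75.8%), against 82.3% of all genes. Within that of the brighter probes lay 24 genes (72.7%), against 78.5% of all genes and 83.1% of those with a mean intensity at or above the 75th percentile, and OSGIN1, at -0.40 log2 units, was the gene added outside it.

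Among the 8 genes outside the spread in A549, MAFG and HMOX1 followed AKR1C2 in the higher direction. MAFG read 1096 with GSK343 and 750 in the control with probe 1, and 888 with GSK343 and 467 in the control with probe 2, a mean difference of 0.74 log2 units. HMOX1 read 3186 with GSK343 and 2019.7 in the control, a difference of 0.66 log2 units, which left it below both HepG2 arrays. GPX4 differed by 0.44 log2 units. In the lower direction, GCLC read 645 with GSK343 and 1159 in the control, a difference of -0.84 log2 units, and GCLM read 6026 with GSK343 and 8374 in the control, a difference of -0.47. Both subunits of the glutamate-cysteine ligase were thus lower with GSK343 on the A549 arrays. PRDX1 had -0.63 log2 units as the mean of -0.42 for its bright probe and -0.84 for its dim probe, and SRXN1 had -0.43. These differences are single comparisons of 1 array with 1 array, and no p-value is available for them.

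**Figure D3:**
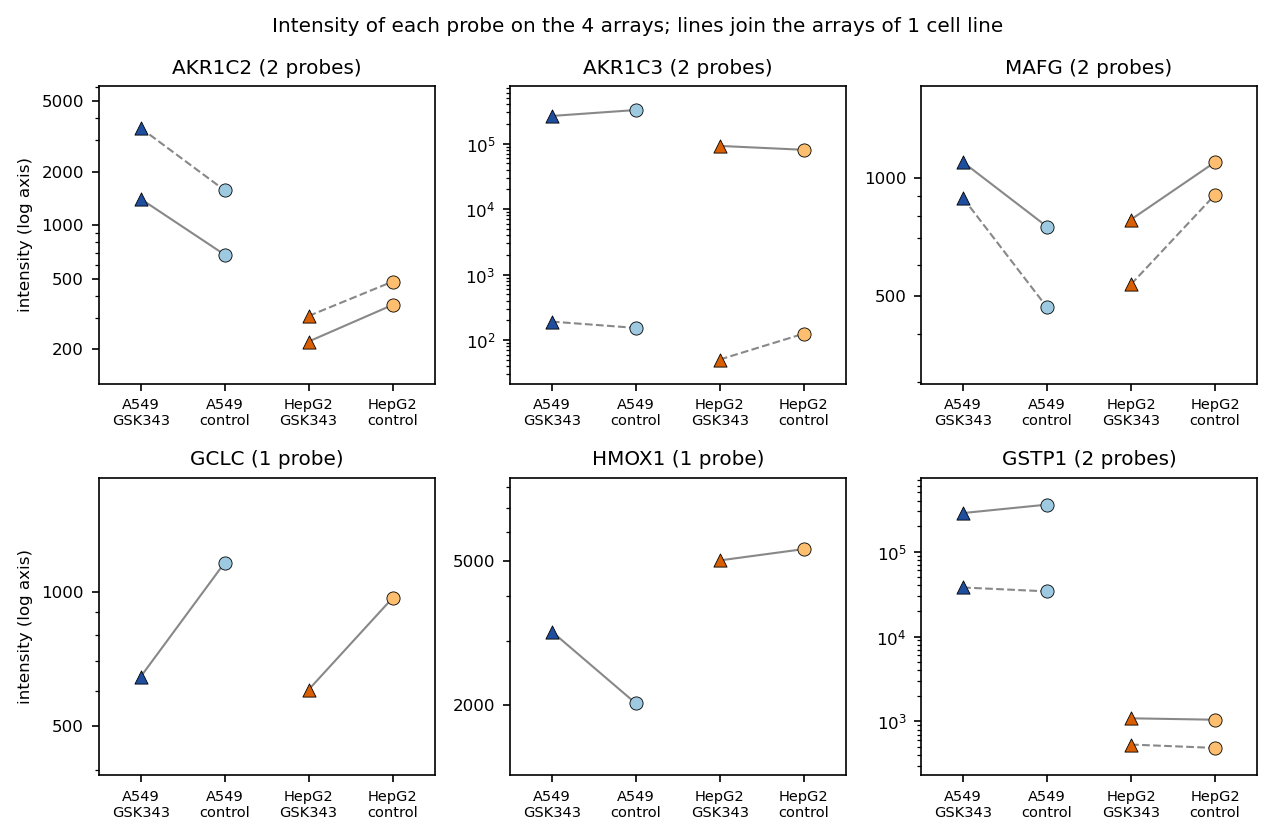
Intensity (vertical, log axis) of each probe of AKR1C2, AKR1C3, MAFG, GCLC, HMOX1 and GSTP1 on the 4 arrays (horizontal), with triangles for GSK343, circles for control, and lines joining the 2 arrays of a cell line, solid for probe 1 and dashed for probe 2. The lines of AKR1C2 and MAFG slope in opposite directions in A549 and HepG2 with both probes, those of GCLC slope the same way, and the dim AKR1C3 probe reads 50.7 on the HepG2 GSK343 array against 125 on the HepG2 control array.

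The third comparison asked for a response shared by both lines. limma, with cell line as a term, called 0 of the 42 probes and 0% of all 31607 probes for GSK343 minus control, and gave 1287 probes an unadjusted p under 0.05. Among the 42 probes only GCLC was among these, at -0.76 log2 units over both lines (SE 0.20, unadjusted p = 0.00706, limma adjusted p = 0.644). GCLC was lower with GSK343 in both lines, by more than the spread between probes in each. It was the only listed gene with this property, and it has 1 probe of its own, so that its values cannot be set against a second probe. Of all genes, 10.8% lay below 0 by more than this spread in HepG2 and 6.77% in A549. The share that did so in both lines was not counted, so how unusual GCLC is among all genes is not known.

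By sign alone, the directions in the lines were mostly opposite. Most of these differences were small, with 27 of the 33 genes in HepG2 and 25 in A549 within the spread between probes. Of the 33 genes, 23 (69.7%) had opposite signs in A549 and HepG2, which was also so for 58.3% of all genes and for 68.9% of all genes with a mean intensity at or above the 75th percentile. Of the 23, 14 were higher with GSK343 in HepG2 and lower in A549, and 9 the other way round. Since 26 of the 33 genes are that bright, the share of opposite signs was close to that of other bright genes. Only 6 genes were above 0 and 4 below 0 in both lines. The signs were counted on the deposited values only. In HepG2, quantile normalization moved some small differences below 0, such as TXNRD1 (0.03 to -0.13) and AKR1B10 (0.12 to -0.05), while others kept their sign. AKR1C2 and MAFG lay beyond the spread between probes in both lines, with opposite signs. Of all genes, 83.7% lay within this spread in HepG2 and 82.3% in A549, and the share beyond it in both lines was not counted. How unusual AKR1C2 and MAFG are among all genes is therefore not known. The array pairs of the lines share no control.

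**Figure D4:**
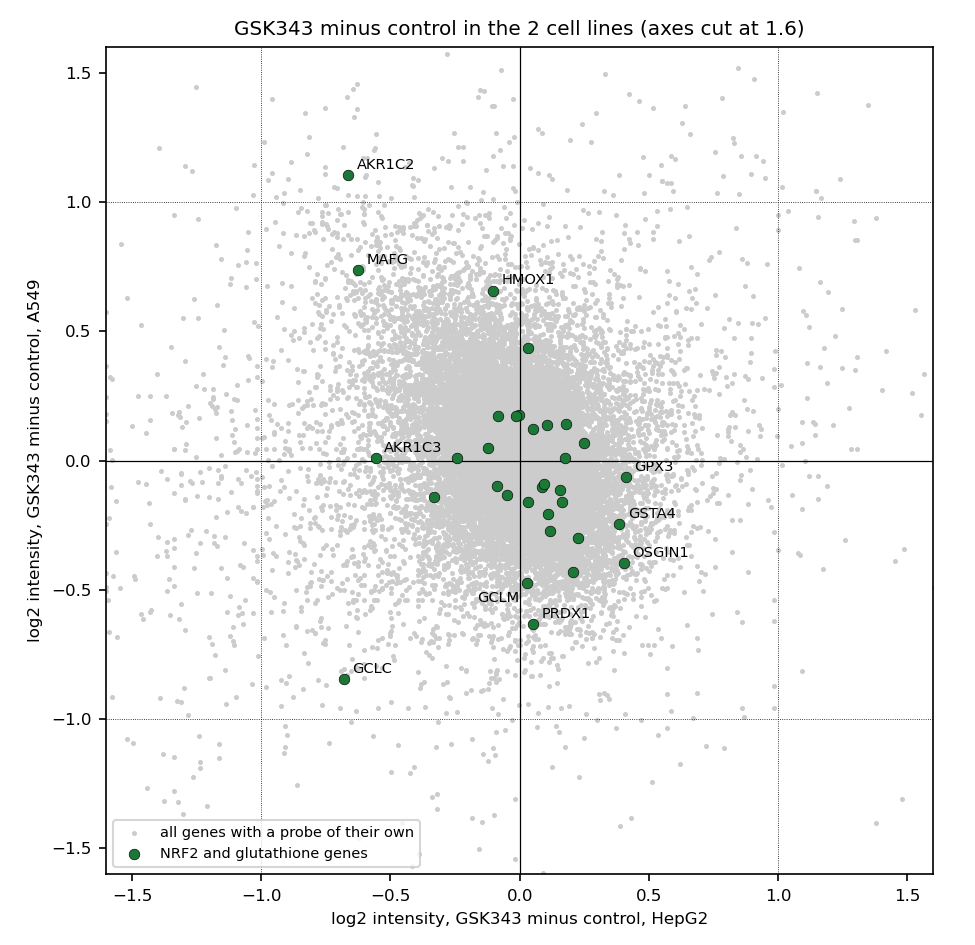
Difference in log2 intensity between GSK343 and control in HepG2 (horizontal) and in A549 (vertical) for the 33 listed genes (green) and all genes with a probe of their own (grey), with dotted lines at 1 log2 unit and axes that end at 1.6, beyond which some grey points lie. AKR1C2 lies at -0.66 and 1.10, GCLC at -0.68 and -0.84, and most green points lie within 0.5 of 0 on both axes.

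Other genes of the pathway were read from lists drawn up by function, with earlier results of these data known. Of 26 further NRF2 targets with a probe, 16 had a probe called higher in A549 by limma, 4 a probe called lower, and 6 no call, where 21.0% of all genes had a probe called higher and 18.2% a probe called lower. Of their 36 probes, 58.3% were called higher and 13.9% lower, against 17.4% and 15.2% of all probes. The largest differences over the control arrays were those of ALDH3A1, an aldehyde dehydrogenase (9.56 log2 units), ME1, the NADP-dependent malic enzyme (7.10), NR0B1, an orphan nuclear receptor (6.80), and CBR3, a carbonyl reductase (5.57). ALDH3A1 was also on the list of A549 markers. Of 15 further regulators of NRF2, 4 had a probe called higher and none a probe called lower, and the autophagy receptor SQSTM1, which binds KEAP1, was higher at 1.14 log2 units (SE 0.23, limma adjusted p = 0.00836).

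The lists around glutathione had calls in both directions. They overlap with the list of further NRF2 targets, and SLC7A11, ME1, IDH1 and TXNIP are counted there and here. Among 20 genes of glutathione supply and turnover, 3 had a probe called higher in A549 and 7 a probe called lower (15.4% and 30.8% of 26 probes, against 17.4% and 15.2% of all probes). SLC7A11, the cystine transporter, had 2.22 log2 units on the control arrays, whereas CTH and CBS, the enzymes that make cysteine from homocysteine, had -1.79 and -1.75, and ANPEP, an aminopeptidase that acts on glutathione breakdown products, had -1.83. Among 18 other transferases and peroxidases, 5 had a probe called higher and 9 a probe called lower (21.7% and 39.1% of 23 probes), with GPX8 at 4.60 log2 units and GPX7 and GSTT1 at -5.66 and -4.88 on the control arrays. Of 20 other genes around antioxidant enzymes, which include TXNIP, 4 had a probe called higher and 8 a probe called lower (16.1% and 41.9% of 31 probes). The peroxiredoxin PRDX2 had -6.13 log2 units on the control arrays as the mean of 4 probes, which ranged from -0.64 to -8.67 over the 4 arrays. Of 10 other genes of the pentose phosphate pathway and NADPH supply, 3 had a probe called higher and 3 a probe called lower (28.6% of 14 probes each way). For GSK343, limma called no gene of these lists. CHAC1, which degrades glutathione, was 1.09 log2 units higher with GSK343 in A549 and had 0.13 in HepG2. Its 1 probe lay below the A549 array medians, at 323 with GSK343 and 152 in the control (43.6 and 32.6 percentiles). Median centring shifts all probes of an array alike and took AKR1C2 from 1.10 to 0.99 log2 units in A549. CHAC1 started lower than AKR1C2, so it would also fall under 1 log2 unit. SESN3, a sestrin, was the only other gene of these lists past 1 log2 unit with GSK343, at 1.27 in A549. The SESN3 probe read only 27.4 with GSK343 and 11.4 in the control. Across all genes, 0.932% passed this size upward in A549.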

How the data were processed

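Per the labels, total RNA of each condition was amplified, coupled to Cy5 and hybridized to 1 array. The authors deposited the intensity of each spot on a linear scale, in a table of 31741 probes without flags or background columns. How the arrays were scanned and normalized is not given in the sources used here. The platform annotation names 1 gene for 24740 probes, several for 977 and none for 6024. Spots at 0 or less were dropped, and differences are log2 of one array minus log2 of the other, averaged over the probes that name a gene alone. Counts used a size of 1 log2 unit and have no p-value, since each condition is 1 array, which limits the precision.

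limma 3.58.1 (R 4.3.3) was fitted to 31607 probes with terms for line and treatment and a trend of the variance, and p-values were two-sided and adjusted by Benjamini-Hochberg, with calls under 0.05. The fit leaves 1 residual degree of freedom, so each probe's error was drawn mostly from the trend over all probes (5.89 prior degrees of freedom). Since the arrays of a line may not be independent cultures, the p-values measure only the spread between these arrays, pooled over probes. The scripts, in Python 3.11.15 and R, were tested on simulated data.

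Full values were given for genes at least 1 log2 unit apart in a comparison, NFE2L2, KEAP1, HMOX1, NQO1, GCLM, TXNRD1 and genes with disagreeing probes, and up to 4 genes of each further list were named by size. The genes and lists were chosen by function, with earlier results of these data known. The alternatives were median centring, quantile normalization, an offset of 50, brighter probes, the brightest probe, shared probes and a size of 1.5 log2 units. limma was also run without the trend, with a robust fit and without the other term.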

Additional observations from a re-analysis of the deposited data

Results flagged for a closer look

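MAFG differed in opposite directions with GSK343 in the lines, by 0.7375 log2 units in A549 and -0.6237 log2 units in HepG2, both beyond the spread between probes, with 2 probes of the same sign in each line. AKR1C2 likewise differed by 1.104 log2 units in A549 and -0.6634 log2 units in HepG2, with 2 probes of the same sign in each line. Each line had 1 array per condition, so the difference between the lines was not tested for either gene. Opposite signs of any size were found for 58.3% of all genes and for 68.9% of those with a mean intensity at or above the 75th percentile. The share of all genes with opposite signs beyond the spread in both lines was not counted, so how unusual MAFG and AKR1C2 are is not known. The probes of 6 of 9 listed genes with 2 probes agreed in sign for GSK343 in A549, and those of 4 of 9 in HepG2.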

How the results depend on the processing

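At a size of 1.5 log2 units, 3 genes were higher and 1 was lower in A549 on the control arrays, in place of 9 and 5, and 0 genes were higher with GSK343 in A549, in place of 1. That gene, AKR1C2, was also just under 1 log2 unit after median centring, which gave 0 genes. The other 84 counts and medians recomputed moved by less than the limits set for them, and no called value changed sign. limma called 12 to 16 probes higher and 7 or 8 lower in A549, and 0 for GSK343, under all its alternatives. The brighter TXN probe lost its call under 5 of 7 alternatives, and probes of MGST1, GPX1, GCLM, AKR1C1 and AKR1C3 gained one under 1 or 2. The cause was not tested. The mean of AKR1C3 in HepG2 was 0.20 in place of -0.56 log2 units with its bright probe alone, and that of GSTP1 between the lines 8.42 with its brightest probe. Median centring moved the median of all genes for GSK343 in A549 to -0.08, against 0.04 without it, and the genes past 1 log2 unit there to 113 higher and 154 lower, against 171 and 98. No paired analysis was possible because each group is 1 array and the labels give no replicate numbers, while the limma fit already sets GSK343 against control within each line. Intensity limits the dim probes of NQO1, PRDX1, GSTM3 and AKR1C3.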
